A study of Caenorhabditis elegans with 2 samples.

Results

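The NK-2 class homeobox genes of the nematode Caenorhabditis elegans analysed here are ceh-22, ceh-24, ceh-27 and ceh-28. They were chosen by gene family and matched by symbol, and all 4 were found among 19973 nuclear protein-coding genes of the annotation. Their proteins carry a homeodomain, a DNA-binding fold, of the kind found in the fly proteins NK-2 and tinman and in the vertebrate Nkx2 proteins, and this kind of homeodomain is known to recognise the core sequence AAGTG. CEH-22 is a regulator of pharyngeal muscle genes such as the myosin gene myo-2 and also acts in the somatic gonad. ceh-24 is known for expression in muscle and neurons, including vulval muscle, and ceh-28 for its role in the M4 motor neuron of the pharynx. CEH-27 is itself the protein that was immunoprecipitated, so the data give the ChIP signal listed for 1 member of the family around the genes of all 4.

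The assay was ChIP-seq, which sequences the DNA that an antibody pulls down together with a chosen protein. There was 1 group, young adult worms of strain OP139 at 73 hours, taken whole and grown from starved L1 larvae, with the sexes pooled. They carry the transgene wgIs139, in which a fosmid copy of ceh-27 ends in TY1, EGFP and 3xFLAG tags, together with the marker unc-119(+), in the mutant background unc-119(ed3). An anti-GFP antibody was used, which targets the tagged protein made from the transgene, in material from all tissues at once. The 2 biological replicates are numbered 4 and 1. No second condition or untagged strain was analysed here, so nothing below separates binding of CEH-27 from other sources of signal.

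The authors' lists give each region an interval, a summit and a signal whose scale is not stated, on build ce11. The set that passed their reproducibility threshold held 2328 peaks with signals from 91.7 to 1263 and a median of 134.6. The pooled list and the list of each replicate held 30000 regions each, background included, with median signals of 38.7 in the pooled list, 27.7 in replicate 4 and 19.01 in replicate 1. Signals were therefore compared within a list, and rank 1 is the strongest region of a list. The 3 reproducible summits described below had the same signal and rank in the reproducible set as in the pooled list. The lowest signal of that set, 91.7, fell beside pooled rank 2324 (91.8). Membership thus followed pooled signal, and 2186 of the 2328 peaks had a summit within 100 bp in both replicates. Around each gene a window was read from 10 kb upstream of its 5' end to 5 kb downstream of its 3' end.

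Across the 4 windows there were 3 reproducible summits, 2 at ceh-22 and 1 at ceh-24, and none at ceh-27 or ceh-28. A reproducible summit thus lay in 2 of 4 windows, beside 32.2% of the windows of all protein-coding genes. The window of ceh-22 was the only one of the 4 with at least 2 such summits, which 9.16% of all windows had. With 4 genes, these counts do not set the family apart from genes in general.

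The sequences under the 3 reproducible summits are shown first, because they differ in what they hold. Each is the plus strand of build ce11 (assembly WBcel235, RefSeq sequence), 5' to 3', over 101 bases centred on the summit. Capitals mark AAGTG or its reverse complement CACTT.

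ceh-22, first coding exon, chrV:10672782-10672882: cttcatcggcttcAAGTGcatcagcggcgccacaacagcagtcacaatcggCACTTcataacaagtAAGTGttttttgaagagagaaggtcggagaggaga

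ceh-22, downstream of the gene, chrV:10677648-10677748: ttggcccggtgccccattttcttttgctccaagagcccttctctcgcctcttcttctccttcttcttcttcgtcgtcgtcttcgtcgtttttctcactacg

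ceh-24, upstream of the gene, chrV:13808579-13808679: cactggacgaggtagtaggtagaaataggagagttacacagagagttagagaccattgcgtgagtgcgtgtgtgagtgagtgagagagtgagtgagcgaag

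The first ceh-22 sequence holds 3 cores within 50 bp of the summit, and the other sequences hold none. The count depends on the summit position, since the same span around the replicate 4 and replicate 1 summits of this peak held 2 cores each. Over all 2328 reproducible summits, 27.1% had at least 1 core in the same span, 5.5% at least 2 and 0.687% (16 summits) at least 3. In the pooled list these shares were 24.1%, 3.44% and 0.343%. For scale, 26.0% of all 101-base positions in the ceh-22 window hold the core, 27.3% in the ceh-24 window, 27.4% in the ceh-27 window and 16.3% in the ceh-28 window, where the sequence is also lowest in G and C (32.8%, against 34.1% to 35.6% in the other windows).

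The whole ceh-22 interval, 344 bp long, holds 6 cores, whose centres lie 104, 77 and 35 bp before the summit and 3, 18 and 79 bp after it on the plus strand. At least 6 cores were found in 3 of the 2328 reproducible intervals (0.129%), this one included. The core 18 bp after the summit, at 10672848 to 10672852, stands at the start of the intron that follows the first coding exon. The longer word TNAAGTG, in which N is any base and which contains the core, occurs at 2 of the 3 central positions. TNAAGTG was present 2 or more times within 50 bp of 15 reproducible summits (0.644%) and at least 1 time at 6.53% of them. The word TNAAGTGG, which contains both shorter words, occurs 1 time in the interval, 80 bp after the summit. Neither of the other 2 intervals holds any core over its full length, whereas 54.6% of all reproducible intervals hold at least 1. These matches describe letters, not sites of binding, and the number of cores was singled out after the sequences were seen.

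The other 2 sequences were instead uneven between the strands. The sequence downstream of ceh-22 is 79.2% pyrimidine (C or T) on the plus strand, and that upstream of ceh-24 is 70.3% purine (A or G). Only 0.773% of reproducible summits were as one-sided as the first and 7.26% as the second, where the median summit had 56.4% of 1 kind. The ceh-22 exon sequence, with 57.4% purine, was close to that median. In G and C content the 3 sequences were alike and close to the median of all reproducible summits (49.5%), with 48.5% in the exon of ceh-22, 51.5% downstream of it and 49.5% upstream of ceh-24.

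**Figure D1:**
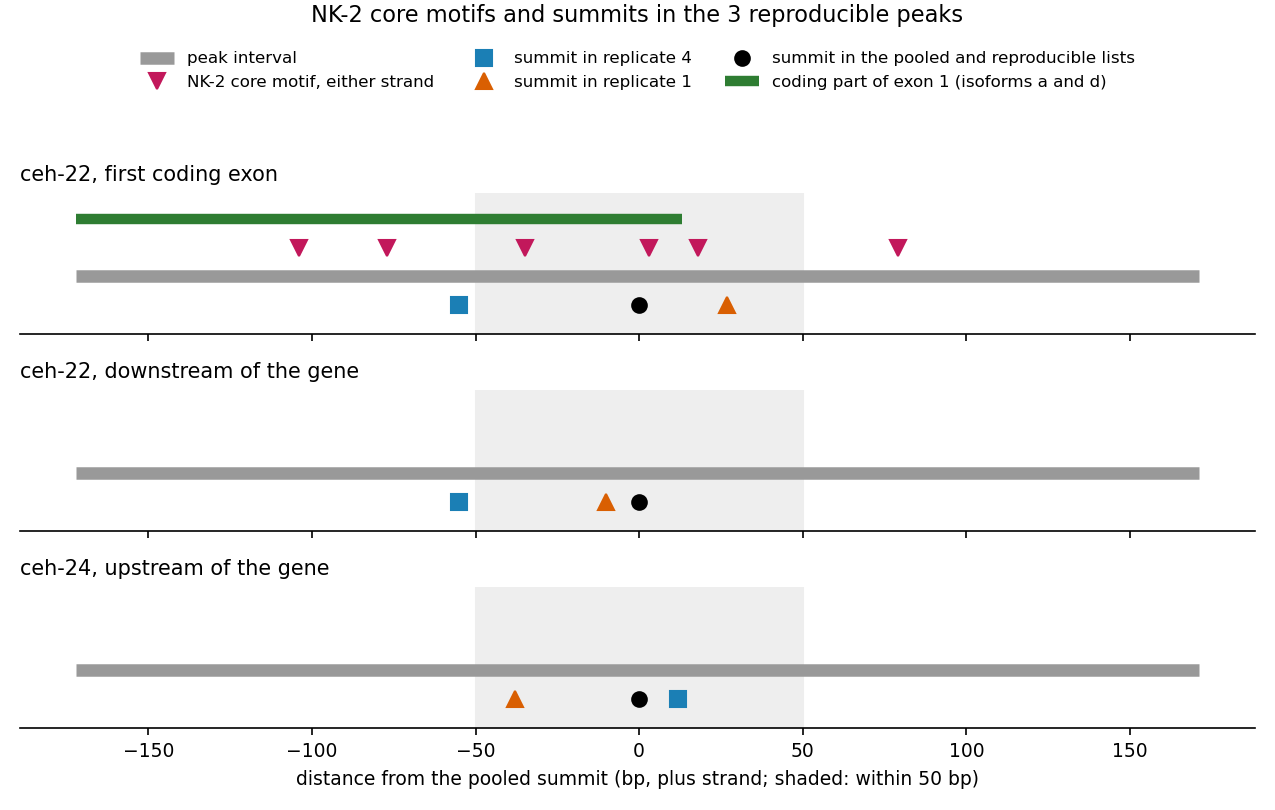
Each row is 1 of the 3 reproducible peaks, with position in bp from the pooled summit on the plus strand. The grey bar is the peak interval, triangles pointing down are core motifs on either strand, the green bar is coding sequence and the markers below are the summits of the replicates and of the pooled list. The 6 cores of the ceh-22 exon peak stand on both sides of its summit, and the other 2 peaks have none.

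At ceh-22, which lies on the plus strand of chromosome V from 10671918 to 10675769 (WBGene00000445), the stronger peak ran from 10672660 to 10673003 with its summit at 10672832. Its signal was 224 in the reproducible and pooled lists, 157 in replicate 4 and 80.2 in replicate 1. It ranked 405 in the pooled list, 343 in replicate 4 and 448 in replicate 1, and so stood within the top 1.49% of every list of 30000 regions. The replicates thus placed it almost equally high, at 5.67 times the median signal of the list in replicate 4 and 4.22 times in replicate 1. Of the windows of all protein-coding genes, 8.1% held a pooled summit at least as strong; the peak sets this threshold itself, so the share only places it.

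The summit lay in the first coding exon that isoforms a and d of ceh-22 share, 13 bp before the end of that exon at 10672845. Of all reproducible summits, 62 (2.66%) were in coding sequence, and 4 of these, this one included, had a signal of at least 224. The next annotated exon follows after an intron of 1048 bp in isoform a and 135 bp in isoform d. The summit in replicate 4 was at 10672777, in the same exon, and that in replicate 1 at 10672859, just inside the intron. They lay 55 bp before and 27 bp after the pooled summit.

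ceh-22 has 5 annotated transcripts with 5 different 5' ends, and the summit falls between them. It lay 914 bp downstream of the start of isoform a, 198 bp downstream of that of isoform d, and 1039, 1400 and 1672 bp upstream of those of isoforms c, e and b. A promoter was taken as the span reaching 1000 bp upstream and 200 bp downstream of any such 5' end. By that definition ceh-22 was the only member with a reproducible summit in a promoter, 1 of 4, beside 8.47% of all protein-coding genes. This assignment rested on isoform d alone, whose annotated 5' end, 10672634, is also the first base of its coding sequence. It was narrow as well. With a downstream reach of 100 bp in place of 200 bp, a choice made after the data were seen, no member had a promoter summit. In addition, the replicate 1 summit lay 225 bp downstream of the same 5' end and so outside the promoter, while that of replicate 4 lay 143 bp downstream.

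The weaker reproducible peak at ceh-22 had its summit in intergenic sequence at 10677698, which is 1929 bp past the 3' end of the gene. Its signal was 96.0 in the pooled list (rank 2151), 56.9 in replicate 4 (rank 2764) and 40.3 in replicate 1 (rank 2039). It was near the lower edge of the reproducible set, whose lowest signal was 91.7. No 5' end of another protein-coding gene was nearer than that of ceh-22 isoform b, 3194 bp away. The next gene in that direction is gsp-1, which encodes a catalytic subunit of protein phosphatase 1.

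Both ceh-22 summits also fell inside annotated noncoding RNA genes on the opposite strand. The exon summit lay in F29F11.19 (10672291 to 10672923) and the downstream summit in F29F11.17 (10677668 to 10677817). Of all reproducible summits, 287 (12.3%) lay in a gene of this class. The ChIP signal has no strand, so a summit cannot be given to one of the overlapping genes.

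**Figure D2:**
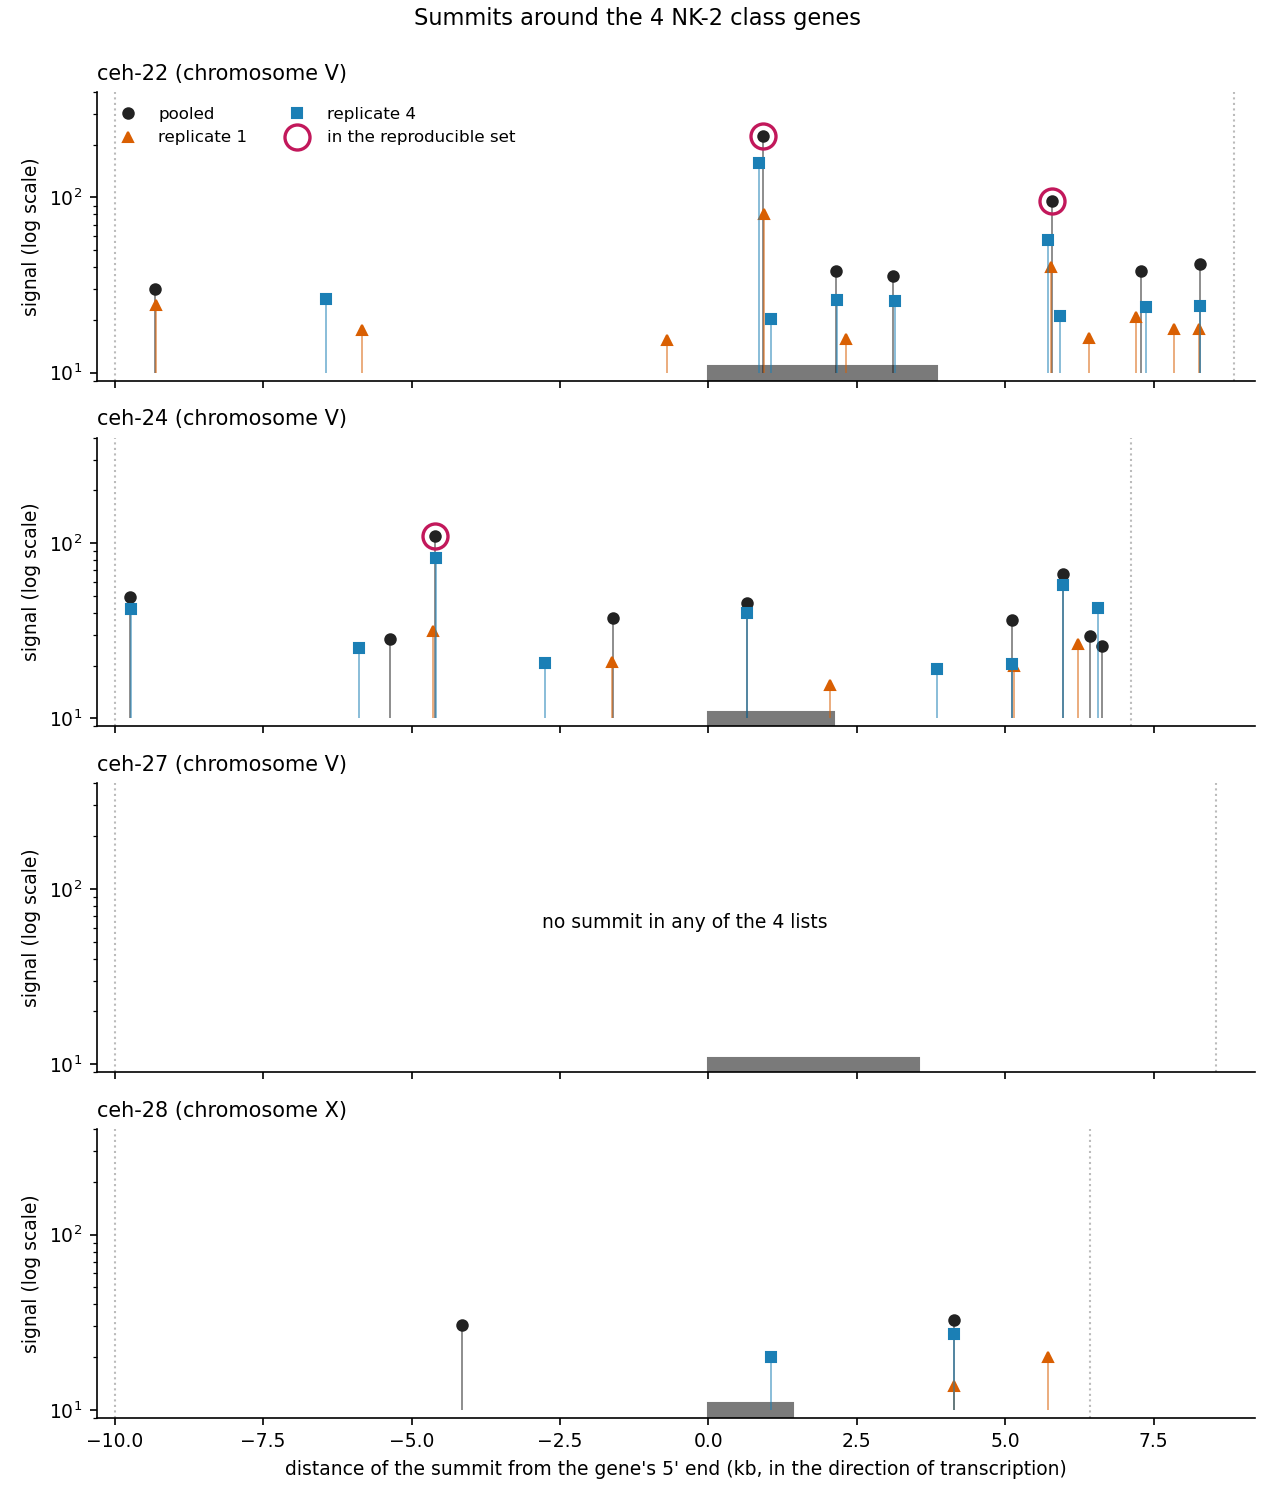
Signal of every summit in the 4 windows on a log scale, against distance from the gene's 5' end in kb, read in the direction of transcription. Black circles are the pooled list, blue squares replicate 4, orange triangles replicate 1, pink rings the reproducible set, grey bars the genes and dotted lines the window edges. The ringed summits are 2 at ceh-22 and 1 at ceh-24, and the ceh-27 window is empty.

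The remaining summits at ceh-22 were weak. In the pooled list there were 5 more, with signals of 29.97 at 10662603, 38.2 at 10674063, 35.6 at 10675020, 37.8 at 10679200 and 41.8 at 10680191, at ranks from 12770 to 24025. The first lay 9315 bp upstream of ceh-22 and nearer to sqv-4, the next were in an intron and in coding sequence of ceh-22, and the last were nearest to gsp-1. Each had a counterpart within 100 bp in at least 1 replicate, and those at 10679200 and 10680191 had one in both.

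Replicate 4 listed 9 summits in the ceh-22 window. Besides those matched to the reproducible summits they were at 10665481 (signal 26.3), 10672977 (20.3), 10674078 (25.9), 10675063 (25.7), 10677843 (21.0), 10679290 (23.7) and 10680191 (24.0), none better than rank 16488. All of these were below the median signal of their list. The summits at 10672977 and 10677843 lay inside the intervals of the reproducible peaks, and the others lay outside them. Replicate 1 listed 10 in that window, of which 8 were outside the reproducible peaks, at 10662620 (signal 24.3), 10666084 (17.6), 10671216 (15.3), 10674235 (15.5), 10678327 (15.8), 10679110 (20.7), 10679762 (17.8) and 10680181 (17.8). The best of them, at 10662620, ranked 7754. The summit at 10671216 was the only one in any list within 1000 bp upstream of the first 5' end of ceh-22, at a distance of 702 bp and at rank 24116.

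At ceh-24, on the plus strand of chromosome V from 13813231 to 13815350 (WBGene00000447), the reproducible peak ran from 13808457 to 13808800 with its summit at 13808629 in intergenic sequence. Its signal was 110.5 in the pooled list, 81.8 in replicate 4 and 31.6 in replicate 1. The ranks were 1692 in the pooled list, 1334 in replicate 4 and 3670 in replicate 1, so replicate 4 placed it higher than replicate 1 did. In replicate 1 it was not among the 2328 strongest regions, the size of the reproducible set. The summit lay 4602 bp upstream of the single annotated 5' end of ceh-24, and nearer to swan-1, a WD-repeat protein gene on the other strand, whose 5' end is 1392 bp away. It was in the promoter of neither gene. The summits of the replicates lay 12 bp after it in replicate 4 and 38 bp before it in replicate 1.

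Within and beside ceh-24 the pooled list held 8 more summits, and the strongest of them was nearest to the 5' end of a neighbour. It was at 13819208, 3858 bp past the 3' end of ceh-24 and 153 bp upstream of sel-10, an F-box protein gene known from Notch signalling. Its signal was 66.3 (rank 4382) in the pooled list and 57.6 (rank 2693) in replicate 4, and replicate 1 had no summit within 100 bp of it. The 1 pooled summit inside ceh-24, at 13813885 in an intron and 654 bp downstream of its 5' end, had a signal of 45.4 (rank 10527), with 39.9 (rank 6370) in replicate 4 and no counterpart in replicate 1. The nearest pooled summit upstream of ceh-24, at 13811632 and 1599 bp from its 5' end, had a signal of 37.6 (rank 15896), with 20.9 (rank 11624) in replicate 1 and none in replicate 4. These summits of ceh-24 were thus each seen in only 1 replicate.

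The other pooled summits of the ceh-24 window were at 13803491 (signal 49.4), in coding sequence of swan-2, at 13807874 (28.5), nearest to swan-1, at 13818341 (36.3), and at 13819650 (29.4) and 13819858 (26.0) in sel-10. Replicate 4 listed further summits, some of them counterparts of these, at 13803505 (signal 42.0), 13807353 (25.3), 13810482 (20.6), 13817080 (19.1), 13818349 (20.4) and 13819797 (42.8). Replicate 1 listed 13815282 (15.6), in the 3' untranslated sequence of ceh-24, 13818373 (19.96) and 13819453 (26.5). Of the 9 pooled summits around ceh-24, 2 were matched in both replicates and 2 in neither. Around ceh-22 these numbers were 4 and 0 of 7. Over the whole pooled list, 27.7% of summits were matched in both replicates and 14.9% in neither.

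At ceh-28, on the plus strand of the X chromosome from 13074673 to 13076092 (WBGene00000450), no summit in any list ranked better than 13029. The pooled list held 2, at 13070516 (signal 30.5, rank 23376) in an intron of cpx-2, a complexin gene, and at 13078805 (32.5, rank 21000) in coding sequence of K03A11.4. The second was also found in replicate 4, with a signal of 27.1 at 13078801, and in replicate 1, with 13.7 at 13078808, which was rank 29651 of 30000. Inside ceh-28 itself there was 1 summit in any list, at 13075720 in coding sequence in replicate 4, with a signal of 19.95 and rank 26280. The remaining summit of replicate 1 was at 13080399 (signal 20.1, rank 13029), above the median signal of that list. The nearest reproducible summits on either side of the 5' end were 28.2 kb upstream, with a signal of 250 (rank 300), and 30.4 kb downstream, with 170 (rank 751). They were nearest to C53C7.3 and F17H10.1, genes named here after their values were seen.

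The replicates were set side by side to judge which of these differences between peaks hold. Signals of the 2186 reproducible peaks matched within 100 bp in both replicates were a median of 1.76 times higher in replicate 4 than in replicate 1, with 95% of peaks between 0.817 and 4.25. The same ratio was 1.96 for the ceh-22 exon peak, 1.41 for the ceh-22 downstream peak and 2.59 for the ceh-24 peak, and 17.1% of matched peaks had a higher ratio than the last. The ceh-22 exon peak was stronger than the ceh-22 downstream peak in both replicates, 2.76-fold in replicate 4 and 1.99-fold in replicate 1. It was also stronger than the ceh-24 peak in both, 1.92-fold in replicate 4 and 2.54-fold in replicate 1. The ceh-22 downstream peak and the ceh-24 peak could not be ordered, since the first had 0.696 times the signal of the second in replicate 4 and 1.28 times in replicate 1. With 2 replicates of 1 group no test between conditions could be made, and these ratios are descriptions.

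**Figure D3:**
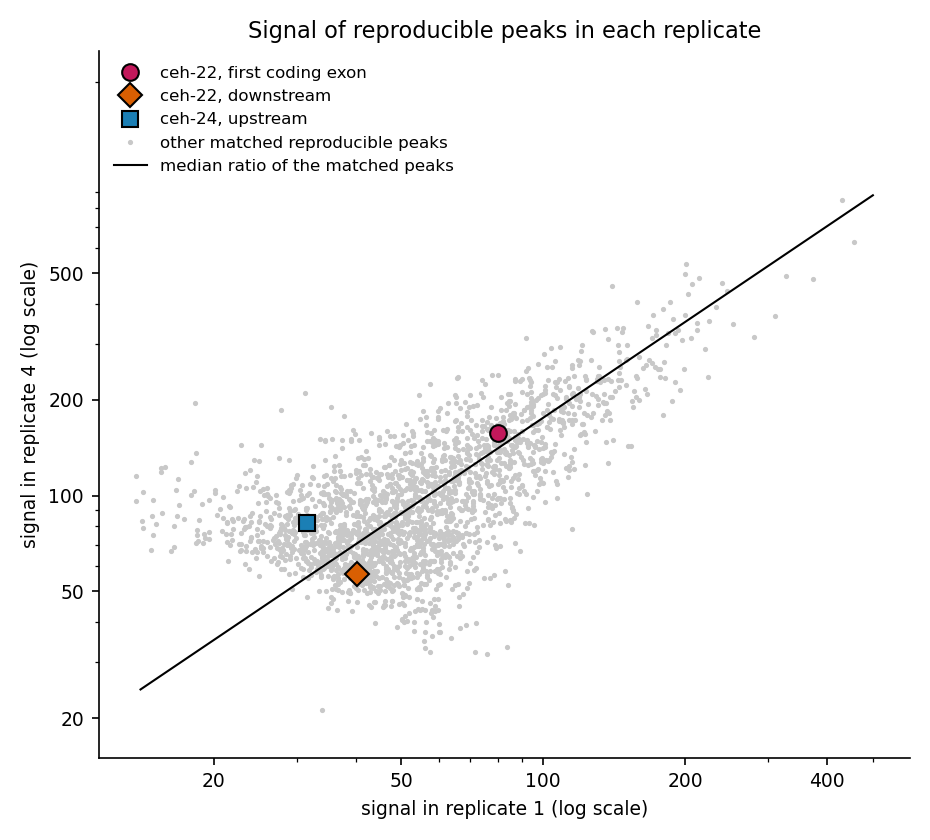
Signal in replicate 4 against signal in replicate 1, both on log scales, for the 2186 reproducible peaks matched in both. Coloured markers are the peaks at the NK-2 genes, grey dots the other peaks, and the line is the median ratio of 1.76. The ceh-22 exon peak lies near the line, and the ceh-24 and ceh-22 downstream peaks lie on opposite sides of it among many other peaks.

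The NK-2 windows held 18 pooled summits, 7 at ceh-22, 9 at ceh-24, 0 at ceh-27 and 2 at ceh-28, where the windows of all protein-coding genes held a median of 5 with quartiles of 2 and 8. At least 1 pooled summit lay in 3 of the 4 windows and in 89.4% of all windows. The median signal of the 18 was 37.7, close to the 38.7 of all pooled regions, and 7 of the 18 were in the stronger 15000. Of the 18, 7 were matched in both replicates and 3 in neither, beside the 27.7% and 14.9% of the whole list. The reproducibility threshold was passed by 3 of the 18 and by 7.76% of all pooled regions. With so few summits, these counts set nothing apart.

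**Figure D4:**
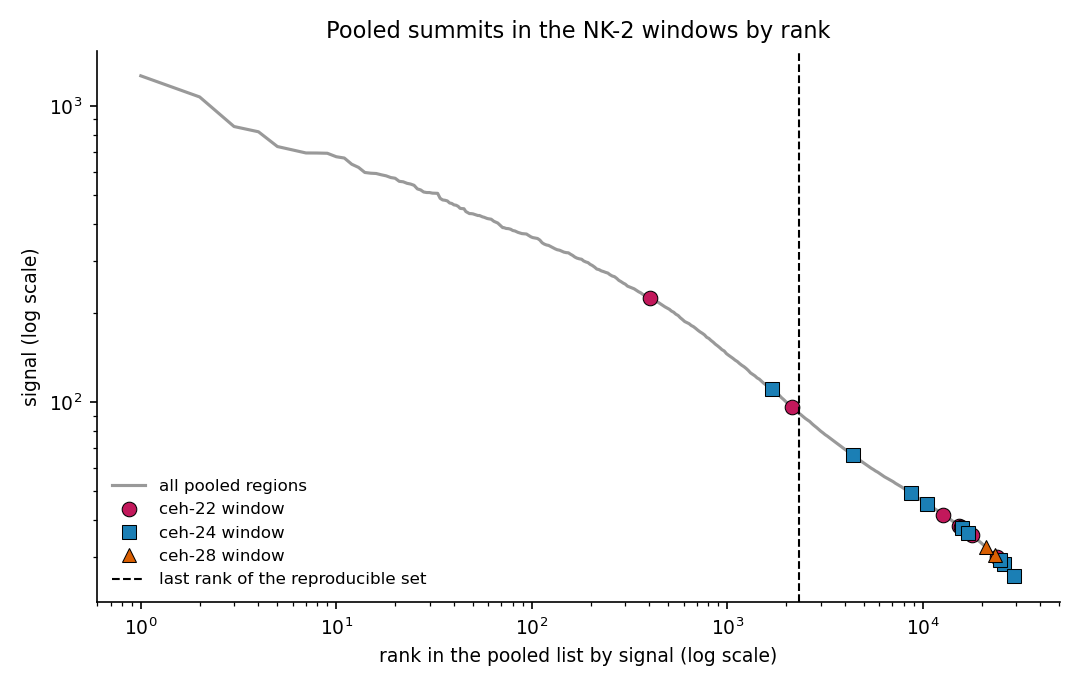
Signal against rank in the pooled list, both on log scales, with the summits of the NK-2 windows marked on the curve of all 30000 regions. The dashed line is rank 2328, the last of the reproducible set. The ceh-22 exon peak stands at rank 405, the ceh-24 and ceh-22 downstream peaks just left of the line, and all other summits to its right.

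At ceh-27, the tagged gene, on the minus strand of chromosome V from 11661549 to 11665102 (WBGene00000449), no list held any summit in the window. No summit in any of the 4 lists was found in 1 of the 4 members' windows and in 2.0% of all windows. The empty stretch was longer than the window. The pooled list had no summit between 11638778 and 11701140, a gap of 62.4 kb that began 26.3 kb downstream of the 5' end of ceh-27 and ended 36.0 kb upstream of it. At the mean density of the pooled list, a stretch of this length would hold 18.7 summits.

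The gap was present in each replicate. It ran from 11638764 to 11701142 in replicate 4, 62.4 kb, and from 11638790 to 11705366 in replicate 1, 66.6 kb. Among 29994 gaps between neighbouring summits it was the 43rd longest in the pooled list, the 45th in replicate 4 and the 3rd in replicate 1. The median pooled gap was 1537.5 bp, and 99% of pooled gaps were shorter than 30392 bp. The gap holds 10 protein-coding genes over their full length, namely bir-1, skp-1, zip-10, ceh-27, F46F3.3, lgc-44, ape-1, W05E10.2, W05E10.1 and W05E10.5.

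On the downstream side of ceh-27 the gap ended at a strong summit, though every gap ends at some summit by definition. How sharply the signal changed at that edge was not tested. The summit there, at 11638778, was a reproducible peak with a signal of 210 in the pooled list (rank 480), 141 in replicate 4 (rank 460) and 75.3 in replicate 1 (rank 522), and its nearest 5' end, 1487 bp away, was that of sipa-1, named after its values were seen. The first pooled summit beyond the upstream edge had a signal of 39.7 (rank 14262). The gaps around the 5' ends of the other members were shorter in these 3 lists. They measured 10.2 kb at ceh-22, 8.29 kb at ceh-28 and 2.25 kb at ceh-24 in the pooled list. At ceh-28 the gap was 27049 bp in replicate 4 and 16872 bp in replicate 1, so the pooled value is the shortest there. In the sparser reproducible set the stretch at ceh-27 did not stand out, since its gap of 73.2 kb was the 408th longest of 2322, and that at ceh-22 was 93.7 kb. At unc-119, the marker gene of the transgene, pooled summits lay 737 bp upstream and 2560 bp downstream of the 5' end, with signals of 44.6 and 35.7. There the distances were 746 and 456 bp in replicate 4, and 5724 and 2101 bp in replicate 1. In the reproducible set the gap around the unc-119 5' end was 133 kb, at rank 152 and so longer than that at ceh-27.

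Cells with the transgene hold extra copies of the fosmid sequence, so reads from the ceh-27 locus come from the transgene as well as from the chromosome. The lists do not say whether regions there were removed before deposit, and the sources used here do not give the ends of the fosmid. Whether the gap is a masked stretch was not tested. The absence of summits at ceh-27 therefore gives no measure of whether CEH-27 is found at its own gene. The sequence of the ceh-27 window holds 64 cores, 58 being found in the ceh-22 window, 57 in the ceh-24 window and 35 in the ceh-28 window.

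**Figure D5:**
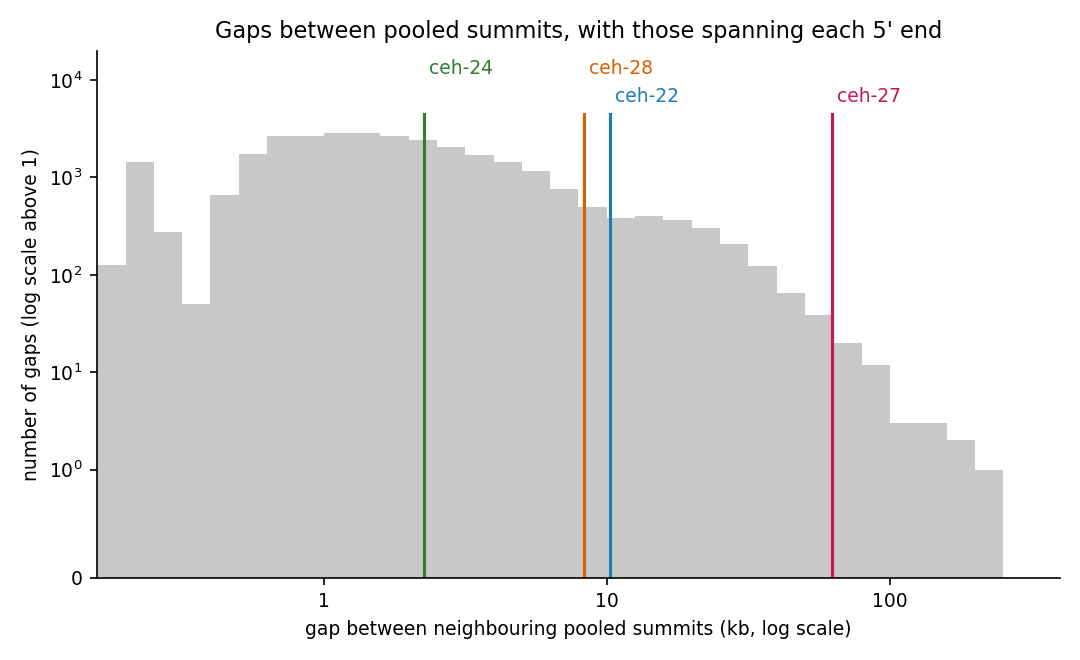
Number of gaps between neighbouring pooled summits by length in kb, on a log scale, with coloured lines at the gap that spans the 5' end of each NK-2 gene. The count axis is logarithmic above 1. The gap at ceh-27, 62.4 kb, stands in the far right tail, and those at the other 3 genes are 10.2 kb or shorter.

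Distances to the nearest reproducible summit differed widely among the 4 genes. The nearest reproducible summit was 914 bp from the 5' end of ceh-22, where 8.11% of protein-coding genes had one as near, and 4602 bp from that of ceh-24 (20.1%). It was 26.3 kb from that of ceh-27 (61.4%) and 28.2 kb from that of ceh-28 (63.5%), beside a median of 17883 bp over all genes. The value at ceh-27 spans the stretch without summits described above.

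Related genes were looked at in the same way, from lists whose members are counted, with values only for those that had a reproducible summit. Of 13 other homeobox genes of the ANTP class, the class to which the NK-2 genes belong, 1 had a reproducible promoter summit (7.69%, beside the 8.47% of all genes) and 4 had one in the window (30.8%, beside 32.2%). The promoter summit was at ceh-43, a Distal-less relative, 454 bp upstream of its 5' end with a signal of 99.7. The others were at ceh-5, ceh-1 and vab-15. At ceh-5 the strongest of 3 summits (signal 320) lay 4743 bp upstream and nearer to the 5' end of eat-16. Another (signal 101) lay 1709 bp upstream, in 3' untranslated sequence of eat-16, with the 5' end of ceh-5 as the nearest. At ceh-1 (128) and vab-15 (120) the summits were 8534 and 8923 bp upstream and nearer to nhr-45 and ipla-2. Only ceh-43 thus had a summit near its own 5' end by the promoter definition, and ceh-5, ceh-1, vab-15 and their neighbours are named here after their values were seen.

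Of 10 pharyngeal regulators and genes known as targets of NK-2 proteins, none had a promoter summit (beside 8.47% of all genes) and 1 had one in the window (10%, beside 32.2%). The list held the regulators pha-4, tbx-2, hlh-6, ceh-34 and eya-1, the muscle genes myo-1, myo-2, myo-5 and tnc-2, and dbl-1, a TGF-beta ligand gene that ceh-28 regulates in M4. The summit was in the window of myo-2, with a signal of 176 in the pooled list (rank 696), 104 in replicate 4 and 70.7 in replicate 1. It lay 9829 bp upstream of the 5' end of myo-2, close to the window's edge, and the nearest 5' end was that of odr-7, 3425 bp away.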

How the data were processed

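Per the labels, ChIP-seq with anti-GFP was run on 2 replicates (numbers 4 and 1) of 1 group. The authors deposited 4 region lists on build ce11, per the labels and the accompanying descriptions: those of the replicates, a pooled one and a subset chosen by reproducibility between replicates (IDR), with a control as background. The sources used here do not give the aligner, region caller, IDR threshold or any masking. Each deposited region carries a signal without a stated scale, and also a −log10 q value from the authors that no result used. Read counts are not part of the lists. Library depth is therefore unknown, and intervals for counting error were not given.

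Summits were read as deposited, in coordinates counted from 1. Genes and transcripts came from Ensembl release 115 and sequence from the RefSeq copy of WBcel235, the assembly of ce11, and every region lay within its chromosome lengths. Summits in different lists were matched within 100 bp. Annotation was assigned in the order 5' untranslated, coding, 3' untranslated, other exon, intron and intergenic. Cores were searched on both strands.

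The genes and lists were chosen with earlier results of these data known. The rule for named genes took the 4 members, the genes nearest to or hosting a reproducible summit in their windows, unc-119 and up to 3 examples of each list. The report goes past it by listing all genes of the pharyngeal list and 4 of the homeobox list, which were named after their values were seen. Neighbours of weaker summits, strand composition, overlap with noncoding RNA genes and summits outside the windows were added after the data were seen. No test was made: 1 group has no contrast, and the 2 replicates, which the labels call biological, served as the measure of spread. Protein sequences were not used here. The interval, promoter and motif code was tested on simulated data against direct counting. Python 3.11.15, numpy 2.4.6, pandas 2.3.3 and matplotlib 3.10.9 were used.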

Additional observations from a re-analysis of the deposited data

How the results depend on the processing

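Of 47 alternative values, 29 were within tolerance (1.5 times for counts, 1 SD between the replicate values for shares and the gap) and 18 were not. Windows of other lengths gave 15 and 25 pooled summits in place of 18 and 3 and 4 reproducible ones in place of 3, all within tolerance. The promoter call at ceh-22 depends on the downstream reach of the promoter: 0 members had a summit with 100 bp downstream and 1 with 500 bp, both reaches chosen after seeing the data. A change of the upstream reach alone could not lose this call. The number of members with a promoter summit ranged from 0 to 1 when the strongest 2328 regions of a single replicate were used, with 0 in replicate 1 alone, whose summit lay 225 bp past the 5' end of isoform d. On the same basis 1 to 2 members had a summit in the window (1 in replicate 1 alone, which lacks the ceh-24 peak) and the windows held 2 summits in each replicate. Among the stronger 1164 peaks 1 member and 1 summit, the ceh-22 exon peak, remained. The share of all protein-coding genes with a promoter summit ran from 8.08% to 8.47% by replicate and was 4.91% with the stronger peaks, 6.64% with 500 bp upstream and 11.2% with 2000 bp upstream. For the windows it ran from 31.4% to 32.3% by replicate and was 19.02% with the stronger peaks, 25.5% with 5 kb on either side and 37.9% with 10 kb on either side. The stronger 15000 pooled regions gave 7 summits in place of 18. Of the 3 reproducible summits, 1 was matched in both replicates within 50 bp and 1 when each replicate was limited to its strongest 2328 regions. The shares of all reproducible summits under these limits are not given, so 1 of 3 cannot be placed beside them. The core was present at 1 summit under every setting tried. The summits searched numbered 3 in the full set, 2 in each replicate and 1 among the stronger 1164 peaks. The last setting could therefore not give more than 1. The gap at ceh-27 ranged from 62378 to 66576 bp by replicate and was 73220 bp in the reproducible set, where the gap at ceh-22 was longer. No paired analysis was possible because there was 1 group.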
